A study of Mus musculus with 8 samples.

Results

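The 10 genes described here encode proteins of the acrosome and of the sperm surface that meets the egg. They were taken by symbol from the deposited gene tables: Acr, Acrbp, Acrv1, Spaca1, Spaca3, Spaca4, Zpbp, Zpbp2, Spam1 and Izumo1. All 10 had a row among the 19276 entries, and all 10 passed the filter on low counts in every comparison. RNA was sequenced from whole testis, and from RNA recovered with an antibody against RNF17 (an immunoprecipitate, IP) from testis lysate, in C57BL/6 mice aged 6 weeks. The 8 libraries form 4 groups of 2: homozygous (hom) testis, heterozygous (het) testis, hom IP and het IP. RNF17 is a Tudor domain protein of the male germ line, and Tudor domains can bind arginines that carry methyl groups. Genotypes are labelled only as homozygous or heterozygous for RNF17. No label describes the allele. The IP used an antibody called RNF17 1774. No wild-type group was analysed here, so heterozygotes are the comparison for homozygotes throughout. Nothing in the labels states that replicate libraries are from different mice. A p-value here therefore reflects the scatter among the libraries in its own test, and that scatter may be technical.

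The acrosome is a secretory vesicle that forms from the Golgi in round spermatids and flattens over the nucleus as the spermatid elongates. It holds proteases and other matrix proteins that are released before or when the sperm meets the egg coat, the zona pellucida. The acrosomal membranes carry proteins that are exposed for fusion. Many acrosomal genes are first transcribed in late meiosis or in round spermatids, well before the protein acts. In whole testis, fewer cells of a type and less RNA per cell cannot be told apart.

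The libraries held between 5661754 and 50575649 gene reads. Levels are given as CPM (read counts scaled to a common library total) after TMM scaling over all 8 libraries, a method that sets most genes at an equal level. Rnf17 itself, the check of the labels, had 50.3 and 97.6 CPM in hom testes, against 507 and 551 CPM in het testes. In the IP it had 214 and 393 CPM in hom libraries, against 1263 and 1189 CPM in het libraries. The hom libraries were below the het libraries in both fractions.

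A het testis library and a hom testis library stood apart from the others of their groups. The summed level of 20 markers of elongating spermatids was 577 and 731 CPM in hom testes, against 5461 and 27051 CPM in het testes. The second het testis library thus had 4.95 times the summed level of the first. In the IP the same sum was 700 and 759 CPM in hom libraries, against 8547 and 8249 CPM in het libraries. The second hom testis library carried RNA of 2 epididymal genes: Crisp1 had 46.9 CPM and Adam7 had 22.4 CPM there, against at most 2.85 CPM and 0.936 CPM in any other library. Of the other 7 epididymal markers, Lcn5, Lcn8, Lcn9, Defb42 and Spint4 were at or near 0 in all 8 libraries. Rnase10 had 2.64 and 3.52 CPM in hom testes, against 3.17 and 6.70 CPM in het testes. Cst8 had 4.06 and 6.94 CPM in hom testes, against 19.2 and 68.9 CPM in het testes. Rnase10 and Cst8 were both higher in the second hom library than in the first. The source of the Crisp1 and Adam7 reads was not tested. The hom testis libraries also differed in germ cell markers. The second had 2.06 times the summed level of the first for meiotic prophase, 2.02 times for pachytene and 2.35 times for round spermatids. For the het testis libraries these ratios were 0.745, 1.94 and 1.66.

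The reference promoters of 4 genes are shown as examples. Acrv1 and Izumo1 fell in the hom IP, Spaca1 differed most between the testis libraries, and Zpbp2 rose in the hom IP. Spam1 and Spaca4, which are not shown, also fell in the hom IP, by more than Izumo1. Each promoter shown is the 250 bases before the annotated start, read in the direction of the gene, from RefSeq on GRCm38.p6. This is a later build than the mm9 named for the tables. RefSeq promoters were matched for 9 of the 10 genes, all except Acr. Capitals mark the cyclic AMP response element (CRE), TGACGTCA, or its shorter form TGACG, searched on both strands. The short form lies within the long one.
Izumo1 (chr7:45621561-45621810, plus strand): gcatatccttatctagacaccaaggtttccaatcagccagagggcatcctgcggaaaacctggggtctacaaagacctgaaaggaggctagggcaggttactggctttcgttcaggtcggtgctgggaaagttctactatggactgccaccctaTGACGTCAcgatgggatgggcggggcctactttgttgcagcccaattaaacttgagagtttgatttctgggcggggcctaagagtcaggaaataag
Spaca1 (chr4:34050066-34050315, minus strand): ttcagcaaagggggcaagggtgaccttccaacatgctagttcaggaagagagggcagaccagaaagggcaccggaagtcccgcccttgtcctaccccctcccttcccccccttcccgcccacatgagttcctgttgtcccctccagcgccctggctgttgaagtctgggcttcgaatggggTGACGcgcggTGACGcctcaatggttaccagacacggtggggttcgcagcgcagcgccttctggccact
Acrv1 (chr9:36692970-36693219, plus strand): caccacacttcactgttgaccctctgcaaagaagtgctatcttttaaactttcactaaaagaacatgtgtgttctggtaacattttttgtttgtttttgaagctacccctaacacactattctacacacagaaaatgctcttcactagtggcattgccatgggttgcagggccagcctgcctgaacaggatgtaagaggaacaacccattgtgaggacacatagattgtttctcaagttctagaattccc
Zpbp2 (chr11:98550847-98551096, plus strand): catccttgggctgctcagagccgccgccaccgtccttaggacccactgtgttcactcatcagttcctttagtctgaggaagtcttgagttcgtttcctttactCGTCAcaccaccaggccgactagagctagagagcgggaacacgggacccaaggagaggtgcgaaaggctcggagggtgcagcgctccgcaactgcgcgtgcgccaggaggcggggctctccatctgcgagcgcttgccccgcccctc
The CRE is the site bound by CREM, an activator of genes of haploid male germ cells. The full CRE was found in 1 of the 9 promoters, that of Izumo1, where it begins 96 bases before the start. Among all 32851 promoters of the table, 1.55% held it. The short form was found in 5 of the 9 promoters, those of Izumo1, Spaca1, Acrbp, Spaca3 and Zpbp2, and in 17.8% of all promoters. Neither form was found in those of Acrv1, Spam1, Spaca4 and Zpbp. In Spaca1 it occurs at 69 and 59 bases before the start, in Acrbp at 18, in Spaca3 at 62, and in Zpbp2, on the opposite strand, at 147. Another annotation, GENCODE M21, starts Spaca1 and Acrbp farther upstream, so by that annotation their matches lie inside the gene. These are matches of letters and not measured sites.

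The 10 genes lie on 6 chromosomes. On GRCm38, Zpbp (chr11:11279626-11462408), Zpbp2 (chr11:98551097-98558665) and Spaca3 (chr11:80858365-80867814) share chromosome 11. Izumo1 (chr7:45621811-45628823) and Spaca4 (chr7:45725107-45725813) lie near each other on chromosome 7. The span of Spaca4 overlaps Fam83e, which has its own row in the tables, and that of Zpbp overlaps Spata48. No source used here gives the strand setting of the counting, so reads of Spaca4 and of Fam83e cannot be told apart in the overlap.

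Set per kilobase of exon, so that genes can be compared with one another, Zpbp2, Acr and Spaca1 were the 3 highest of the 10 in testis of both genotypes and Spaca4 the lowest. In hom testes the mean level per kilobase was 111 CPM for Zpbp2, 61.4 CPM for Acr, 59.4 CPM for Spaca1, 50.1 CPM for Acrbp and 31.0 CPM for Zpbp. Within these 5 no gene was separate from the next, meaning that the libraries of neighbours overlapped. Below them came Acrv1 at 15.0 CPM per kilobase and Spaca3 at 13.1, then Izumo1 at 6.74, Spam1 at 5.43 and Spaca4 at 4.63. In het testes Spaca1 was first at 345 CPM per kilobase and Spaca4 last, and no neighbouring pair was separate. In the hom IP Zpbp2 was first at 164 CPM per kilobase, with both libraries above those of Acrbp, the next gene at 118. In the het IP Acrv1 was first at 172 CPM per kilobase and was not separate from Acrbp at 145. Zpbp2 was sixth in the het IP at 62.2 CPM per kilobase.

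**Figure D1:**
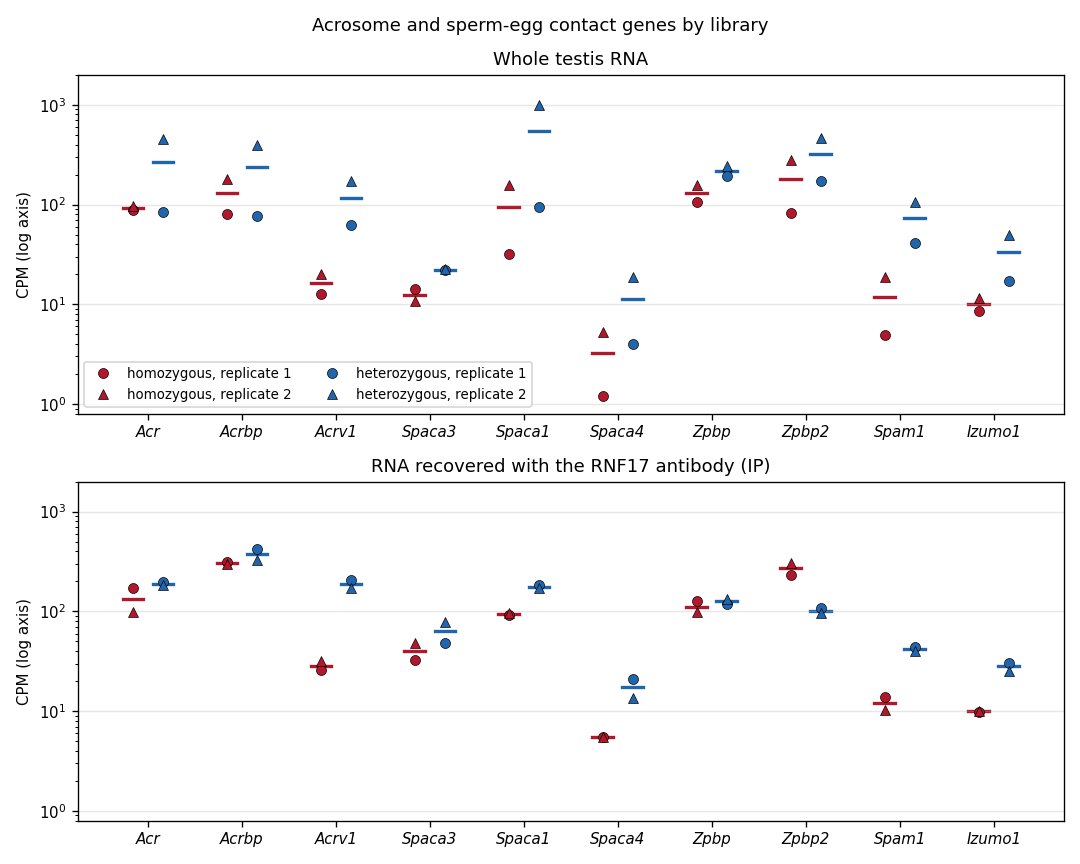
Level of each of the 10 genes in each library, in CPM on a log axis, with whole testis above and the RNF17 IP below. Points are libraries (circle, replicate 1; triangle, replicate 2), bars are group means, and homozygotes stand left of heterozygotes. In the IP the hom libraries lie below the het libraries for 8 genes and above them for Zpbp2, while in testis the het libraries are spread widely.

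The first comparison asks whether the level of these transcripts in whole testis differs between hom and het animals. All 10 genes had a fitted log2 fold change below 0 (hom over het), with a median of -1.65, against a median of 0.04 over the 14332 genes tested. None passed edgeR's quasi-likelihood test at an adjusted p under 0.05, where 0% of all genes were called. At an unadjusted p under 0.05 there were 3 of the 10 (Acrv1, Spam1 and Izumo1) and 1453 of all genes. DESeq2 called 2 of the 10, Acrv1 and Spam1, both lower in hom testes, against 4.77% of all genes called lower. For 5 of the 10 both hom libraries lay below both het libraries, against 19.7% of all genes.

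Acrv1, which encodes the acrosomal vesicle protein SP-10 and is a classic gene of round spermatids, had the largest fitted difference. It had 12.7 and 20.2 CPM in hom testes, against 62.2 and 172 CPM in het testes. The groups did not overlap. The log2 fold change was -2.83 ± 0.70 (SE), or 7.13-fold lower, with an edgeR adjusted p of 0.178 and a DESeq2 adjusted p of 0.00236. The authors' deposited table gives normalised means of 242 for hom and 1733 for het testes, with a log2 fold change of -2.06 and an adjusted p of 0.00639. That log2 column is not the plain log2 ratio of the means beside it.

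Spam1 encodes the hyaluronidase PH-20, which loosens the matrix around the egg's cumulus cells. It had 4.87 and 18.7 CPM in hom testes, against 41.7 and 106 CPM in het testes, again with no overlap. The log2 fold change was -2.64 ± 0.84 (SE), with an edgeR adjusted p of 0.307 and a DESeq2 adjusted p of 0.0200. In the authors' deposited table Spam1 has normalised means of 174 for hom and 1089 for het testes, a log2 fold change of -1.78 and an adjusted p of 0.0501. The higher of the hom values is in the library with Crisp1 and Adam7 RNA. Without that library the edgeR log2 fold change of Spam1 was -3.88. The part of the Crisp1 and Adam7 RNA in the result was not tested. The remaining 8 genes are not in that table, which lists 734 genes.

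Izumo1, the sperm protein that binds the egg receptor JUNO for fusion, had 8.53 and 11.6 CPM in hom testes, against 17.2 and 49.8 CPM in het testes. The groups did not overlap, and the adjusted p was 0.453 in edgeR. Spaca3, a lysozyme-like protein of the acrosome, had 14.1 and 10.8 CPM in hom testes, against 21.8 and 22.4 CPM in het testes. Zpbp encodes a matrix protein that binds the zona and helps to compact the acrosome. It had 107 and 157 CPM in hom testes, against 194 and 245 CPM in het testes. These 3 genes complete the 5 whose testis libraries did not overlap. For Spaca3 and Zpbp, where the het libraries lay close together, the fitted log2 fold changes were -0.83 ± 0.55 and -0.74 ± 0.53 (SE).

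For the other 5 genes the first het library lay within or near the range of the hom libraries. Spaca1 encodes an acrosomal membrane protein that is needed to shape the acrosome in mice. It had 31.9 and 158 CPM in hom testes, against 94.3 and 1007 CPM in het testes. The second het value was 10.7 times the first. Acr, the serine protease acrosin, had 87.3 and 97.5 CPM in hom testes, against 83.3 and 457 CPM in het testes. Acrbp, which binds the precursor of acrosin in the forming granule, had 80.0 and 179 CPM in hom testes, against 77.7 and 397 CPM in het testes. In all 3 the second het library alone stood above the rest. Spaca4, a membrane protein that contributes to zona binding in mice, rested on few reads, with 12 reads in the first hom library. It had 1.22 and 5.33 CPM in hom testes, against 4.00 and 18.6 CPM in het testes. Zpbp2, the close relative of Zpbp, had 82.8 and 280 CPM in hom testes, against 172 and 465 CPM in het testes. The groups overlapped in each of the 5, and the edgeR adjusted p of these 5 genes lay between 0.550 and 0.798.

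The second het testis library decides much of this comparison. Without it, the median of the 10 log2 fold changes was -0.40, none was called, and 4 genes turned above 0: Acrbp at 0.74, Acr at 0.15, Zpbp2 at 0.08 and Spaca1 at 0.02. Acrv1 kept -1.91 and Spam1 -1.80. Without the first het library instead, 6 of the 10 were called lower (Acr, Acrv1, Spaca1, Spaca4, Spam1 and Izumo1), against 6.96% of all genes called lower, and the median was -2.33. Without the second hom library, which carried Crisp1 and Adam7 RNA, the median was -1.92. Without the first hom library it was -1.18. Scaling by total gene reads instead of TMM raised the median of all genes by 0.49 and left all 10 genes below 0, with a median of -1.05.

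**Figure D2:**
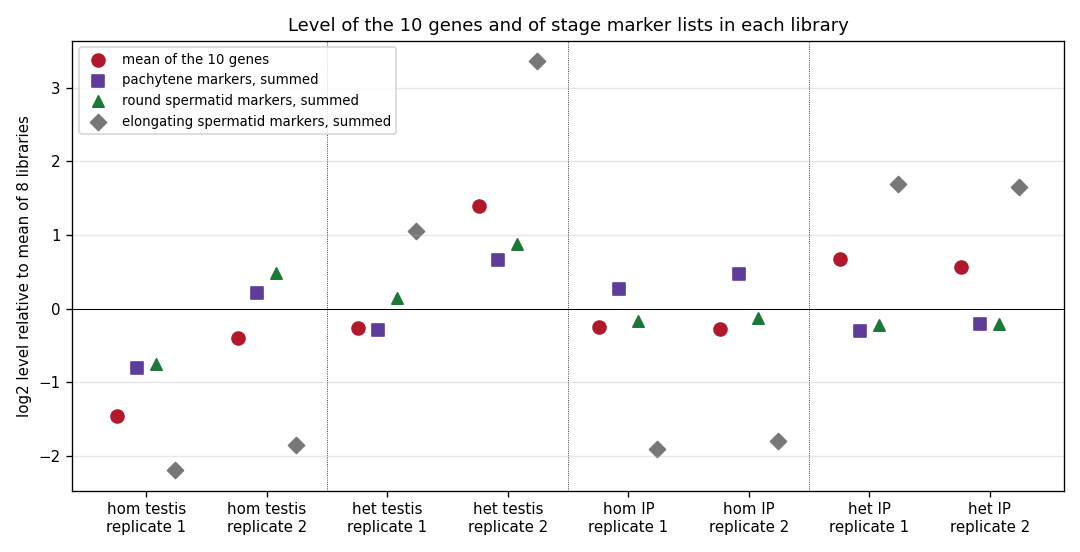
Mean of the 10 genes and summed level of 3 stage marker lists in each library, as log2 relative to the mean over the 8 libraries. The 10 genes were lowest in the first hom testis library (-1.45) and highest in the second het testis library (1.39). Each of the 3 marker lists was also lowest and highest in those same libraries.

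In the RNF17 IP the libraries of a group lay closer together, and the comparison of hom with het libraries gave calls. Of the 10 genes, 5 fell (Acrv1, Spam1, Spaca4, Izumo1 and Spaca1), against 17.7% of all genes called lower. Zpbp2 rose, against 12.4% of all genes called higher. The median log2 fold change was -0.86 (hom IP over het IP), against -0.03 over the 13427 genes tested. For 8 of the 10 both hom libraries lay below both het libraries, against 32.2% of all genes. For 1, Zpbp2, they lay above, against 36.1%.

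Acrv1 had 25.5 and 31.5 CPM in the hom IP, against 207 and 172 CPM in the het IP. It fell by 2.82 on the log2 scale (SE 0.22), or 7.04-fold, with an edgeR adjusted p of 4.44e-06. That is close in size to its fitted difference in testis. Spam1 had 13.8 and 10.3 CPM in the hom IP, against 44.4 and 40.4 CPM in the het IP. It fell by 1.90 (SE 0.26, adjusted p 2.46e-04, edgeR). In both genes the hom libraries lay close together and well below the het libraries. Izumo1 had 9.84 and 10.0 CPM in the hom IP, against 30.7 and 25.5 CPM in the het IP. It fell by 1.59 (SE 0.27, adjusted p 0.00104, edgeR).

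The acrosomal membrane genes moved the same way. Spaca4 had 5.49 and 5.51 CPM in the hom IP, from 29 and 33 reads, against 21.2 and 13.6 CPM in the het IP. It fell by 1.75 (SE 0.33, adjusted p 0.00243, edgeR). Spaca1 had 91.0 and 96.1 CPM in the hom IP, against 182 and 172 CPM in the het IP, and fell by 1.00 (SE 0.19, adjusted p 0.00229, edgeR). The wide spread of Spaca1 in testis was not seen here: its mean was 93.6 ± 3.60 CPM in the hom IP and 177 ± 7.04 CPM in the het IP (SD, n = 2 each).

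The matrix genes Acr, Acrbp and Spaca3 lay below the het libraries without passing the test. Acr had 171 and 98.1 CPM in the hom IP, against 195 and 182 CPM in the het IP (log2 fold change -0.57, adjusted p 0.109, edgeR). Acrbp had 310.5 and 299 CPM in the hom IP, against 422 and 326 CPM in the het IP (-0.38, adjusted p 0.181). Spaca3 had 32.5 and 48.4 CPM in the hom IP, against 48.6 and 77.8 CPM in the het IP (-0.72, adjusted p 0.0693). Scaling by total gene reads called all 3, for 9 calls in the 10 genes, 8 lower and 1 higher. That setting lowered the median of all genes by 0.27, and called 23.4% of all genes lower and 6.2% higher. Zpbp had 126 and 98.1 CPM in the hom IP, against 118 and 133 CPM in the het IP, which overlap (-0.25, adjusted p 0.386).

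Zpbp2 went the other way. It had 233 and 306 CPM in the hom IP, against 108 and 95.7 CPM in the het IP. Both hom libraries were above both het libraries, by 1.32 on the log2 scale (SE 0.21), or 2.49-fold, with an edgeR adjusted p of 7.09e-04. It stayed above 0 in every alternative run, between 1.03 and 1.53. Counted against its paralogue, there were 1.86 and 3.12 Zpbp2 reads per Zpbp read in the hom IP, against 0.915 and 0.717 in the het IP. In testis the same ratio was 0.777 and 1.78 in hom libraries, against 0.885 and 1.90 in het libraries, which overlap. An exact two-sided permutation test of the log2 ratio gave p = 0.333 in the IP, the smallest value that 2 against 2 libraries allow, and p = 0.667 in testis.

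When all 8 libraries shared one estimate of the spread, 1 of the 6 IP calls held, Acrv1, and over all genes the calls dropped to 487, against 4042 with the 4 IP libraries alone. The fold changes changed little under that fit: Zpbp2 was 1.40 with an adjusted p of 0.274, and Izumo1 was -1.50 with an adjusted p of 0.169. With the 4 IP libraries alone, edgeR called all 20 elongating spermatid markers lower in the hom IP, with a median log2 fold change of -4.06. Their part in the members' differences was not tested.

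**Figure D3:**
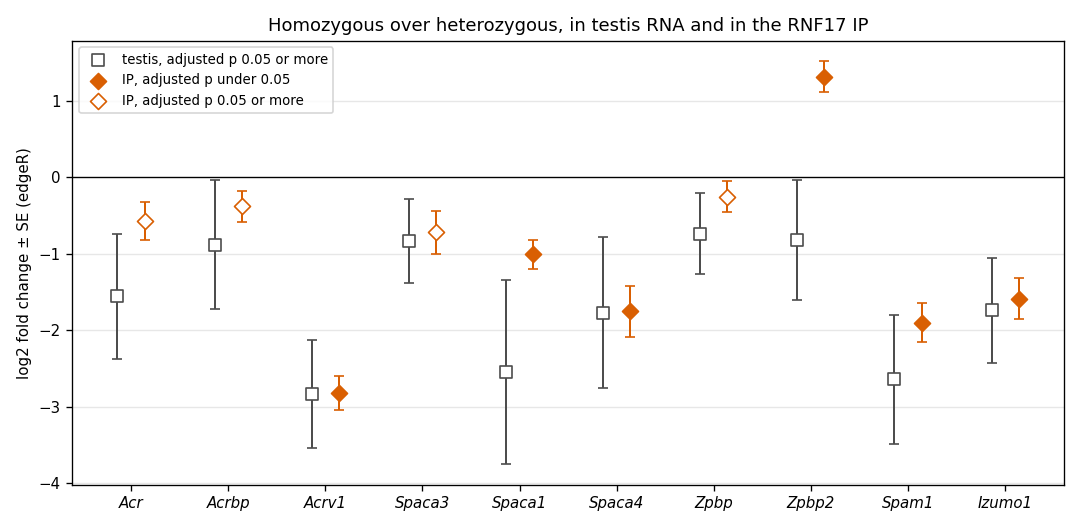
Fitted log2 fold change of hom over het for each gene, with its standard error (edgeR), in testis (squares) and in the IP (diamonds); filled symbols passed an adjusted p of 0.05. All testis values are below 0 with wide errors and none passed, while in the IP 5 genes passed below 0 and Zpbp2 passed above 0 at 1.32.

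The IP was then set against testis RNA of the same genotype, to ask whether these transcripts were over- or under-represented in the precipitate. In homozygotes no gene of the 10 passed edgeR's test, against 3.28% of all genes. At an unadjusted p under 0.05 there were 2 of the 10, Spaca3 and Acrbp, against 22.7% of all genes. DESeq2 called 1, Spaca3, against 10.6% of all genes. Neither count is above its share over all genes. The median log2 ratio was 0.55, and 7 of the 10 were above 0. For 5 genes (Acr, Acrbp, Acrv1, Spaca3 and Spaca4) both IP libraries lay above both testis libraries, against 28.7% of all genes. For Acr and Spaca4 this was a near tie. The lower IP value and the higher testis value were 98.1 and 97.5 CPM for Acr, and 5.49 and 5.33 CPM for Spaca4. Spaca3 had the lowest adjusted p, at 0.0517, with 32.5 and 48.4 CPM in the hom IP, against 14.1 and 10.8 CPM in hom testes. Its log2 ratio was 1.70 ± 0.42 (SE). Without the second hom testis library, 6 of the 10 were called higher in the IP, namely Acrbp, Acrv1, Spaca1, Spaca3, Spaca4 and Zpbp2, against 16.6% of all genes called higher in that fit. Without the first, Spaca3 alone was called, against 17.6% of all genes in either direction.

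In heterozygotes no gene of the 10 passed edgeR's test in IP over testis either, where 0% of all genes were called, and DESeq2 called none of the 10. At an unadjusted p under 0.05 there were 2 of the 10, Spaca3 and Zpbp2, close to the 18.1% of all genes. The median log2 ratio was -0.32, with 4 above 0 and 6 below. Spaca3 and Acrv1 had both IP libraries above both testis libraries, against 28.1% of all genes. Zpbp and Zpbp2 had both below, against 24.9%. For Acrv1 the separation was a near tie, with 207 and 172.25 CPM in the het IP, against 62.2 and 172.23 CPM in het testes. Spaca3 had 48.6 and 77.8 CPM in the het IP, against 21.8 and 22.4 CPM in het testes, a log2 ratio of 1.53 ± 0.42 (SE) that is close to its ratio in homozygotes. Zpbp2 had 108 and 95.7 CPM in the het IP, against 172 and 465 CPM in het testes, a log2 ratio of -1.58 ± 0.51 (SE, adjusted p 0.243). The het testis libraries again set the outcome. Without the first, 7 of the 10 were called, 6 of them lower in the IP, while 40.8% of all genes were called, 21.4% lower. Without the second, 9 were called, 7 of them higher, while 52.4% of all genes were called, 26.9% higher.

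The difference between the genotypes in this ratio was tested itself, as the log2 ratio of IP to testis in homozygotes minus that in heterozygotes. No gene of the 10 passed edgeR's test, where 0% of all genes were called, and DESeq2 called none of the 6 genes for which it gave an adjusted p. At an unadjusted p under 0.05 there was 1 of the 10, Zpbp2, close to the 9.68% of all genes. All 10 differences were above 0 with TMM, from 0.09 for Spaca4 to 2.21 for Zpbp2, but 6 of the 10 turned below 0 with scaling by total gene reads, which lowered the median of all genes by 0.85. For Zpbp2 the difference was 2.21 ± 0.88 (SE), with an adjusted p of 0.474 in edgeR. It held its sign under total-read scaling at 1.36.

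**Figure D4:**
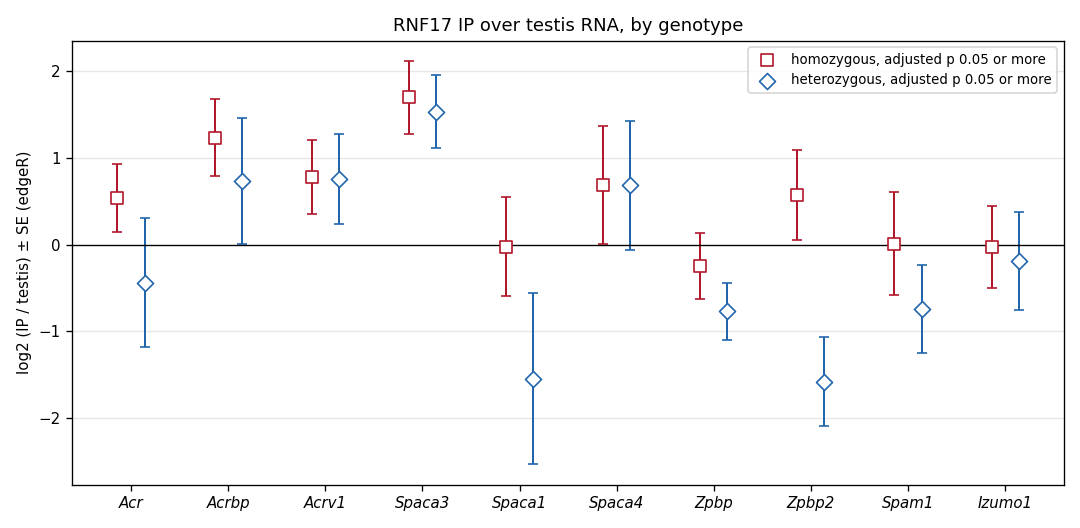
Fitted log2 ratio of the RNF17 IP to testis RNA for each gene with its standard error (edgeR), homozygotes (squares) left of heterozygotes (diamonds). Spaca3 had the highest ratio in both genotypes (1.70 in homozygotes and 1.53 in heterozygotes), Zpbp2 differed most between them, and no value passed an adjusted p of 0.05.

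Other genes of the same pathway were read from 4 lists of 73 genes in all, which leave out the 10 described above. In testis 67 were measured, with a median log2 fold change of -0.71 (hom over het), and 55 were below 0. EdgeR called none, and DESeq2 called 18 lower and 1 higher, against 4.77% and 0.16% of all genes. In the IP 66 were measured, with a median of -0.52, and edgeR called 27 lower and 8 higher. Over all genes in the IP, 17.7% were called lower and 12.4% higher, so the number called higher is near the share over all genes. The same shares are the background for the IP counts of each list that follows, and the DESeq2 shares for the testis counts.

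The genes of the fusion surface, zona contact and cumulus passage had the lowest median of the 4 lists in both fractions, at -1.93 in testis and -1.86 in the IP. Of 18 measured in testis, DESeq2 called 9 lower, and in the IP edgeR called 11 lower and 2 higher. Prss37, a protease-like gene needed for sperm to pass into the oviduct in mice, had 2.84 and 1.70 CPM in hom testes, against 22.2 and 86.1 CPM in het testes. In the IP it had 0.378 and 0.667 CPM in hom libraries, against 81.1 and 41.4 CPM in het libraries, and it fell by 6.89 on the log2 scale. Izumo3, of the family of Izumo1, fell by 2.00 in the hom IP. Eqtn (row 4930579C15Rik), an acrosomal membrane gene called equatorin, fell by 3.90 there. Crisp2, Hyal4 and Spesp1 did not pass in the IP. Crisp2, a cysteine-rich protein of the acrosome and tail, had 470 and 694 CPM in the hom IP, against 564 and 617 CPM in the het IP. Hyal4, named as a hyaluronidase, had 4.77 and 11.9 CPM in hom testes, against 43.3 and 44.7 CPM in het testes, while in the IP its log2 fold change was 0.07. Spesp1, a protein of the equatorial segment, had an IP log2 fold change of 0.27.

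Of the 14 acrosome matrix genes, edgeR called 7 lower and 1 higher in the hom IP, with a median of -0.91 there and of -0.84 in testis. Prss55, a serine protease, fell by 4.31 in the hom IP. Lyzl1 and Lyzl6 are lysozyme-like genes as Spaca3 is. Lyzl1 fell by 2.07, Lyzl6 fell by 1.96 and Spaca7 fell by 2.44. Dkkl1, an acrosomal glycoprotein, was the highest of the list and did not pass, with 547 and 548 CPM in the hom IP, against 536 and 345 CPM in the het IP. Serpina5, a protease inhibitor, was the gene that DESeq2 called higher in testis. It had 50.2 and 52.9 CPM in hom testes, against 13.5 and 12.6 CPM in het testes.

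The genes of acrosome biogenesis had medians nearer 0, at -0.56 in testis and -0.14 in the IP, where edgeR called 7 lower and 4 higher. Hook1, a linker to microtubules, had 154 and 216 CPM in hom testes, against 725 and 1169 CPM in het testes, and fell by 1.80 in the hom IP. Actl7a, an actin-like protein, fell by 1.26 there and Spata46 (row 1700015E13Rik) by 2.50. Fam209 (row 1700029J11Rik) had 17.3 and 35.3 CPM in hom testes, against 52.8 and 549 CPM in het testes, and did not pass in the IP. Tmf1 and Golga3, both Golgi genes, were among the 4 called higher in the hom IP. Tmf1, a Golgi protein needed for acrosome formation in mice, rose by 1.16, with 3511 and 3508 CPM there, against 1266 and 1699 CPM in the het IP. In testis Tmf1 had 195 and 559 CPM in hom libraries, against 658 and 1068 CPM in het libraries, a log2 fold change of -1.20 that did not pass. Golga3, a golgin, rose by 0.88 in the hom IP and had a log2 fold change of 0.09 in testis.

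The exocytosis genes had medians of -0.15 in testis and -0.19 in the IP, where edgeR called 2 of 12 lower and 1 higher, near the shares over all genes. Plcz1, the phospholipase that starts calcium waves in the egg, had 23.6 and 34.1 CPM in hom testes, against 230 and 430 CPM in het testes. It fell by 3.29 in the hom IP, with 18.7 and 20.7 CPM there, against 194 and 170 CPM in the het IP. Stx2, a membrane fusion protein, rose by 0.72 in the hom IP. Plcd4 and Cacna1h did not pass in either fraction.

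**Figure D5:**
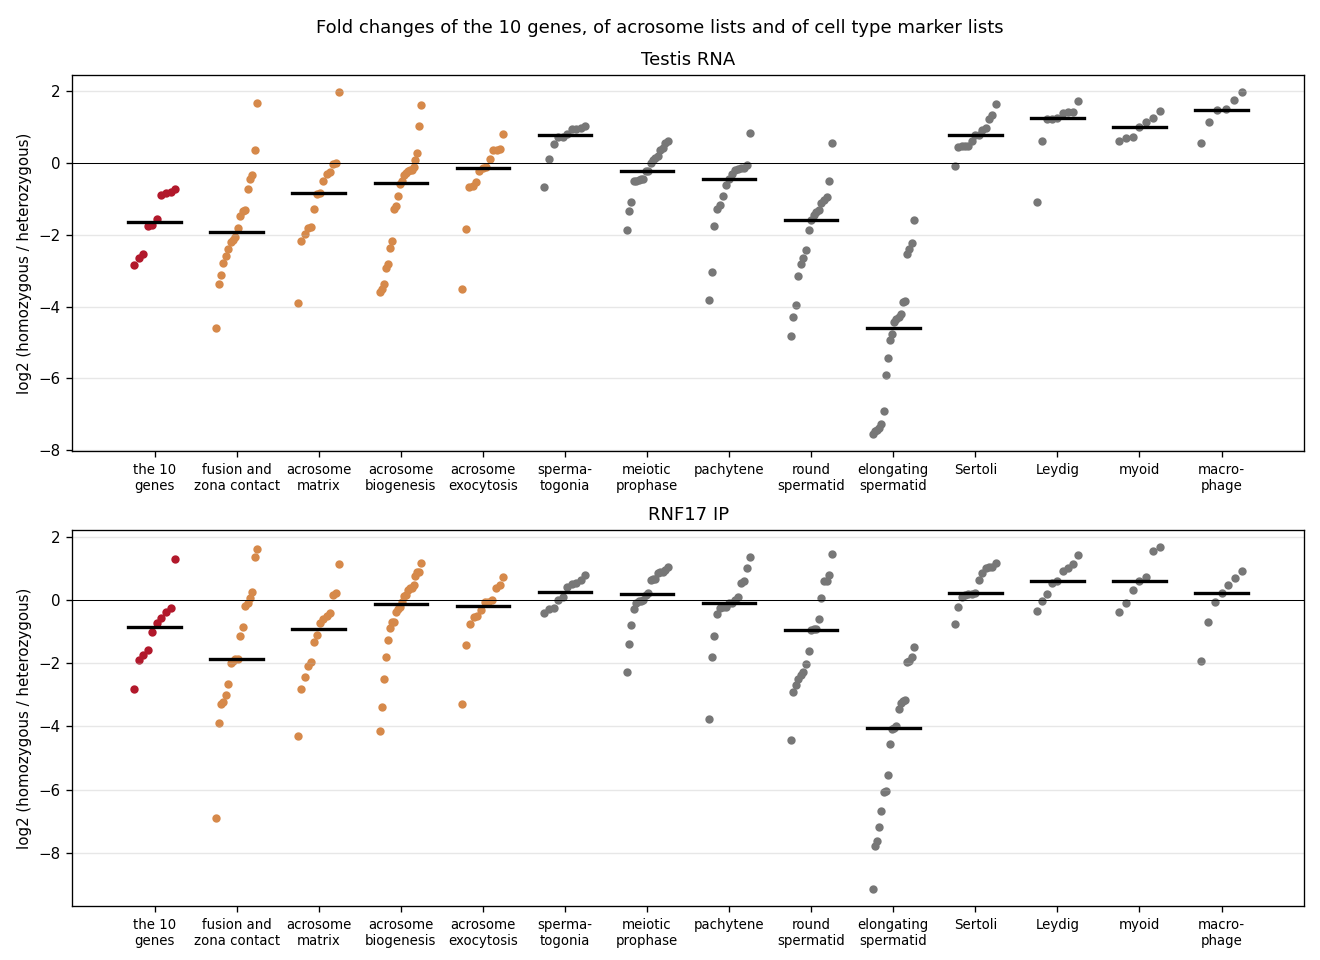
Log2 fold change (hom over het, edgeR) of each measured gene in the 10 genes, 4 acrosome lists and 9 cell type marker lists, in testis above and in the IP below; black bars are medians. The 10 genes (median -1.65 in testis and -0.86 in the IP) lie near the round spermatid markers (-1.59 and -0.96) and above the elongating spermatid markers (-4.60 and -4.06).

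Marker lists of the testis cell types describe the mix in which these values stand. In testis the median log2 fold change was -0.22 for 18 genes of meiotic prophase, -0.45 for 15 pachytene genes, -1.59 for 17 round spermatid genes and -4.60 for 20 elongating spermatid genes. It was 0.77 for 10 spermatogonial genes, 0.77 for 13 Sertoli genes, 1.26 for 9 Leydig genes, 1.00 for 7 myoid genes and 1.49 for 6 macrophage genes. EdgeR called none of these genes in testis. DESeq2 called 17 elongating, 7 round spermatid and 2 pachytene genes lower and none higher, against 4.77% and 0.16% of all genes. Only 2 epididymal genes and 1 blood gene passed the filter in testis, with medians of -1.84 and 0.92. In the hom IP edgeR called 12 of 17 round spermatid genes lower and 2 higher. Among 18 genes of meiotic prophase it called 3 lower and 7 higher, and among 15 pachytene genes 3 lower and 2 higher. It called 1 of 10 spermatogonial genes higher, 1 of 7 macrophage genes lower, 2 of 3 epididymal genes lower, and not the 1 blood gene. It called 4 of 13 Sertoli, 3 of 9 Leydig and 3 of 7 myoid genes higher and none of those lower. The summed level of the Sertoli list was 1290 and 1505 CPM in hom testes, against 608 and 894 CPM in het testes. The summed level of the Leydig list was 750 and 882 CPM in hom testes, against 292 and 413 CPM in het testes. Hbb-b1 and Hba-a1 of the blood list and Insl3 of the Leydig list were listed at 0 in all 8 libraries. The part of the mix in the values of the 10 genes was not tested.

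Within the set, Izumo1 lay closest to the mean profile of the 10 genes over the 8 libraries, with a mean absolute difference of 0.284 on the log2 scale. Acrv1 and Zpbp2 lay farthest, at 0.759 and 0.756. Among genes outside the set whose log2 CPM averaged 3 or more, the 5 closest to the mean profile were Ttc21a at 0.129, Fam123a at 0.146, Nfkbib at 0.148, Xrra1 at 0.155 and Amotl1 at 0.159. Ttc21a had 28.5 and 62.9 CPM in hom testes, against 55.3 and 165 CPM in het testes. In the IP it had 51.5 and 51.1 CPM in hom libraries, against 111 and 96.5 CPM in het libraries. The libraries differ in depth and cell mix, which every gene of a library shares, so this likeness is a description of 8 values.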

How the data were processed

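RNA was measured in 8 libraries, 2 for each of 4 groups named in the sample titles. The 10 genes and all lists were chosen with earlier results of these data known. The deposited gene tables hold whole-number read counts per gene entry, not normalised. Per the submitters' processing notes the reads were processed with STAR, DESeq and mm9, with no versions or settings. Libraries were made with not-so-random primers, per the labels' protocols. The authors' deposited table of 734 testis genes gives, for each genotype, a signal that is their mean normalised count, and beside it a log2 fold change and an adjusted p-value. It is quoted only where named. The testis columns are repeated in 2 tables and were identical. No column was left unmapped, and transposon tables are not used here.

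Counts were joined over 19276 entries and tested with edgeR 4.0.16 (R 4.3.3; TMM, filterByExpr, quasi-likelihood test), with Benjamini-Hochberg adjustment over all genes tested and a threshold of 0.05. A comparison of 2 groups used only their 4 libraries, and the interaction used all 8. Printed levels are CPM on one TMM scale. The fitting steps were tested on counts simulated at one depth and one spread for all libraries. The real libraries differ in both, so that test does not show how the fits handle these differences. Alternatives were DESeq2 1.42.0, its size factors (RLE) in edgeR, total reads, no filter, the replicate number as a block, one fit on all 8 libraries, and leaving out each library. Gene reads per library ranged from 5661754 to 50575649, so low genes such as Spaca4 are least precise in the shallow libraries.

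Named list genes are, for each of the 4 pathway lists, the 4 with the smallest p in testis and the 2 with the highest mean; Crisp1 and Adam7 were named after their values were seen. A gene that the rule selects is not reported here. Of the list genes, 5 were matched under another symbol and 3 were not matched. Exon lengths are from GENCODE M21 and promoters from RefSeq, both on GRCm38, a different build from that of the tables. A permutation test of 2 against 2 libraries cannot go below p = 0.333.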

Additional observations from a re-analysis of the deposited data

Results flagged for a closer look

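For Acr the ratio of IP to testis ran in opposite directions in the 2 genotypes, at 0.53 in homozygotes and -0.44 in heterozygotes on the log2 scale. The difference was 1.06 on the log2 scale (edgeR adjusted p 0.764), and leaving out the second het testis library turned it to -0.64. For Zpbp2 the hom over het fold change was above 0 in the IP (1.32) and below 0 in testis (-0.82), and its ratio of IP to testis was 0.57 in homozygotes and -1.58 in heterozygotes. The difference was 2.21 (edgeR adjusted p 0.474) and stayed above 0 under every alternative run, between 1.32 and 3.29, with adjusted p from 0.0865 to 1.00.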

How the results depend on the processing

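In hom over het testis no gene of the 10 was called with TMM, with RLE factors, with total reads or without the low-count filter. DESeq2 called 2 (706 over all genes, against 0), one fit on all 8 libraries called 1 (655 over all genes), and leaving out the filter called 361 over all genes. With the replicate number as a block, 3 of the 10 were called, Acrv1, Spaca1 and Spam1 (943 over all genes). Leaving out a library gave 0 to 6 calls in the 10 and 73 to 1273 over all genes, with log2 fold changes from -2.33 to 0.15 for Acr, -1.64 to 0.74 for Acrbp, -4.05 to 0.015 for Spaca1 and -1.91 to 0.082 for Zpbp2.

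Same-numbered hom and het testis libraries deviated together over genes (r = 0.588), but same-numbered hom testis and hom IP libraries did not (r = -0.119), and the labels do not pair them. In the IP the block gave 8 calls of the 10, against 6, with Acr and Spaca3 added. Over all genes it called 33.7% there, against 30.1%. It changed the sign of Spaca1 in IP over testis of homozygotes (0.38) and of Acrv1 (-0.025) and Spaca4 (-0.038) in the interaction. It gave 194 calls over all genes in IP over testis of heterozygotes and 1010 in homozygotes.

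In hom over het IP, all 10 kept their direction under every alternative. One fit on all 8 libraries called 1 of the 10 and 487 over all genes. Total reads called 9 of the 10 and 29.6% of all genes, and leaving out the filter called 8 and 26.2%. Leaving out a library gave 2069 to 5414 calls over all genes, against 4042, and 6 to 7 in the 10.

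For IP over testis in heterozygotes, calls over all genes were 599 with DESeq2, 1 without the filter and 3 in the fit on all 8 libraries. Leaving out a library gave 0 to 9 calls in the 10 and 11 to 7278 over all genes, with ranges of -1.25 to 1.13 for Acr, -0.060 to 2.22 for Acrbp, -2.48 to 0.86 for Spaca1, -0.058 to 2.08 for Spaca4 and -0.80 to 0.67 for Izumo1. Total reads turned Acr (0.0016) and Izumo1 (0.22) above 0. In homozygotes, 1 of the 10, Spaca3, was called with DESeq2, with RLE factors, without the filter and with the block. Calls over all genes were 1330 with DESeq2, 1124 with total reads, 1469 without the filter and 51 in the fit on all 8 libraries, against 438. Spam1 turned below 0 with total reads (-0.33) and without the filter (-0.022). Leaving out a library gave 0 to 6 calls and 89 to 4556 over all genes, with ranges of -0.77 to 1.47 for Spaca1, -0.071 to 1.62 for Zpbp2, -0.65 to 1.22 for Spam1 and -0.24 to 0.13 for Izumo1.

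The interaction called none of the 10 under any alternative. Over all genes DESeq2 called 248 and total reads 10. Total reads turned Acrbp (-0.33), Acrv1 (-0.81), Spaca3 (-0.68), Spaca4 (-0.78), Zpbp (-0.25) and Izumo1 (-0.68) below 0, and the absence of a filter turned Acrv1 (-0.037) and Spaca4 (-0.070). Leaving out a library gave 0 to 259 calls over all genes, with ranges of -0.64 to 1.83 for Acr, -1.03 to 1.33 for Acrbp, -0.83 to 0.65 for Acrv1, -0.94 to 3.11 for Spaca1, -0.16 to 0.51 for Spaca3, -1.46 to 1.49 for Spaca4, -0.026 to 2.05 for Spam1 and -0.74 to 0.80 for Izumo1. Where a library is left out, the lone library of its group is assumed to vary like the other group. The cause of these shifts was not tested.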
